A study of Mus musculus with 7 samples.

Results

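Mouse brain RNA was read on both strands of the same genes, and the genes were sorted by how high they ranked on each strand. The sense side came from a 430A and a 430B Affymetrix array, and the antisense side from the reverse-oriented probe sets of a U74A and a U74B array, so 4 of the 7 arrays in the series were used. A gene entered when its symbol stood alone on at least 1 sense probe set and on at least 1 reverse probe set. This gave 2830 genes, out of 18193 with a sense probe set and 2915 with a reverse probe set.

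All 4 arrays were hybridised with biotin-labelled cRNA made from 8 micrograms of total RNA of whole dissected mouse brain, rinsed and extracted in TRIzol. The labels give neither the strain, age and sex of the mice nor their number, and do not say whether sense and antisense arrays shared an RNA sample. The early U74 design carried some probe sets in the wrong orientation, and the submitters, per the labels, picked them out with a mask from Affymetrix. The orientation of every antisense value below rests on that mask.

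Natural antisense transcripts are RNAs copied from the strand opposite a known gene. Some arise from a neighbouring gene that runs into the locus, others from promoters of their own inside or beside it, and many are noncoding. In brain such RNAs are known from genes of synapses, of neurodegeneration and of genomic imprinting, where they can act on the stability, splicing or transcription of the sense RNA.

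Sense and antisense signals came from different probes on different arrays, so ranks within an array, and not signals, were set side by side. A percentile is the rank of a probe set among all probe sets of its array. A gene was given by its highest-ranking probe set on each strand and was counted as high from the 75th percentile. That limit lay at a signal of 256.2 on 430A, 265.1 on 430B, 63.6 on U74A and 98.5 on U74B. Probe sets bind with different strength, so a high rank is not a measure of molecules, and a low rank does not show that a transcript was missing. Each group had 1 array, so no value carries a replicate error and no difference was tested.

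The sense arrays read as brain. Of 65 neuronal and synaptic markers with a sense probe set, 62 ranked high, with a median percentile of 98.0. For scale, 44.4% of the 2830 genes with both values ranked high on sense. The share over all 18193 genes with a sense probe set is not given here. The astrocyte and oligodendrocyte lists gave 20 of 21 and 20 of 24. Markers of microglia and immune cells were high for 4 of 27, those of endothelium, mural cells and fibroblasts for 8 of 27, and those of pituitary, choroid plexus and blood for 7 of 20. These 7 included some of the highest sense signals: the pituitary hormones Gh (5129.1, percentile 99.9), Prl (4519.1, 99.9), Pomc (3041.6, 99.4) and Cga (612.0, 90.9), and Ttr, the thyroid hormone carrier of choroid plexus (12769.8). Their part in the ranks of other genes was not tested. Lists of tissues that a brain should lack gave 1 of 21 for kidney tubule, 1 of 23 for liver (Ttr again), 1 of 32 for muscle and 0 of 31 for germ cells. In whole tissue, fewer cells of a type and less RNA per cell cannot be told apart.

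Of the 2830 genes, 377 ranked high on both strands, which is 13.3%. The sense strand alone ranked high for 880 genes (31.1%), the antisense strand alone for 438 (15.5%) and neither strand for 1135 (40.1%). In all, 1257 genes (44.4%) were high on sense and 815 (28.8%) on antisense. The median gene stood at percentile 70.5 on sense and 55.5 on antisense. These shares are the background for the gene groups below. They depend on how a gene with several probe sets is read: with the median of its probe sets in place of the highest, 195 genes (6.9%) were high on both strands, and of 927 genes with 1 probe set on each strand 78 (8.4%) were, while 166 were high on sense alone and 199 on antisense alone.

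**Figure D1:**
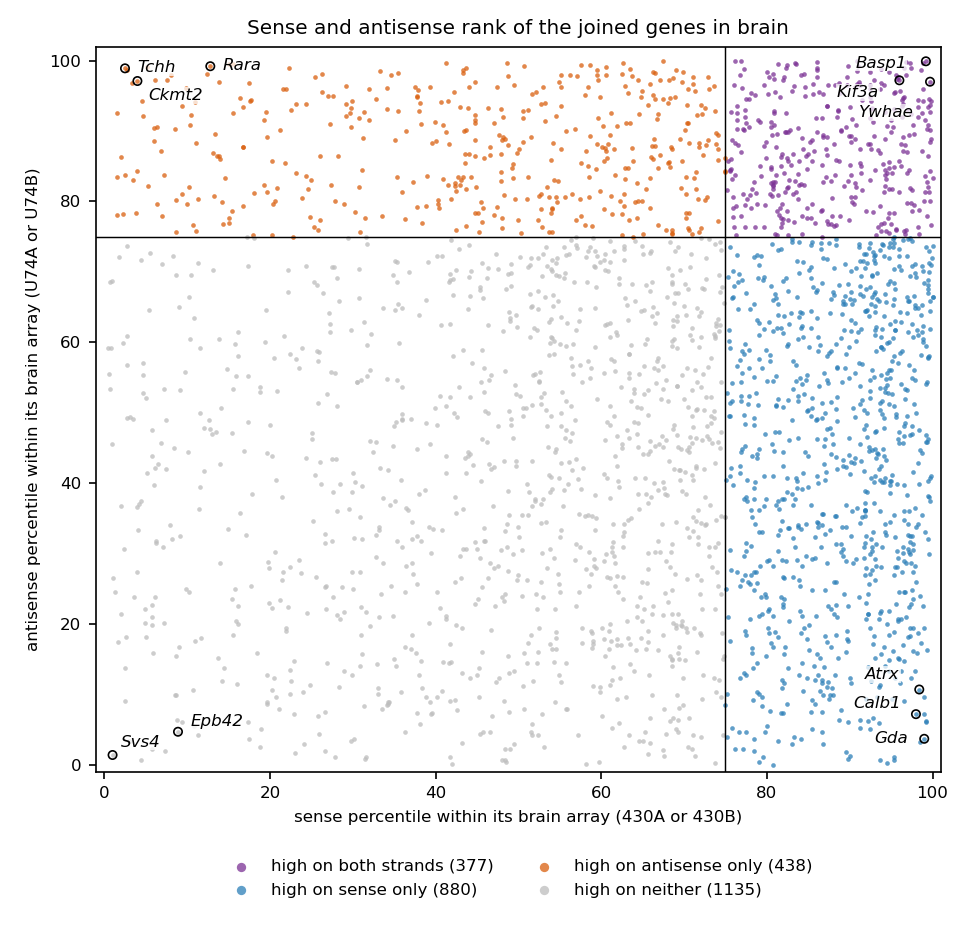
Each point is 1 of the 2830 genes, placed by its sense percentile (x axis, 430A or 430B) and its antisense percentile (y axis, U74A or U74B), and black lines mark the 75th percentile. The 377 genes at the top right ranked high on both strands, the 880 at the bottom right on sense alone and the 438 at the top left on antisense alone; 11 of the named genes are circled.

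Sense rank carried little information on antisense rank as read here. Antisense ranks also agreed poorly among themselves. For genes with exactly 2 reverse probe sets, these lay a median of 28.3 percentile points apart. Over 63 genes read on both U74A and U74B, rho between those arrays was 0.09. A low rho between sense and antisense therefore cannot show that the strands are unrelated. Among genes high on sense, 377 of 1257 were also high on antisense, which is 30.0% (95% Wilson interval 27.5 to 32.6), and among the other genes 438 of 1573 were, which is 27.8% (25.7 to 30.1). These intervals cover counting error over genes only, and genes are not replicates. The order of these shares turned with the U74A array alone (28.8% against 29.2%) and with a single ranking of all sense probe sets (27.9% against 29.7%). Across the 2830 genes the percentiles of both strands had a Spearman rho of 0.05, and within the 4 pairs of a sense with a reverse array rho lay between 0.03 and 0.09. In 10 groups of 283 genes ordered by sense rank, the share high on antisense ran from 24.7% in the fourth group to 33.2% in the seventh, with 32.2% in the lowest and 29.7% in the highest.

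**Figure D2:**
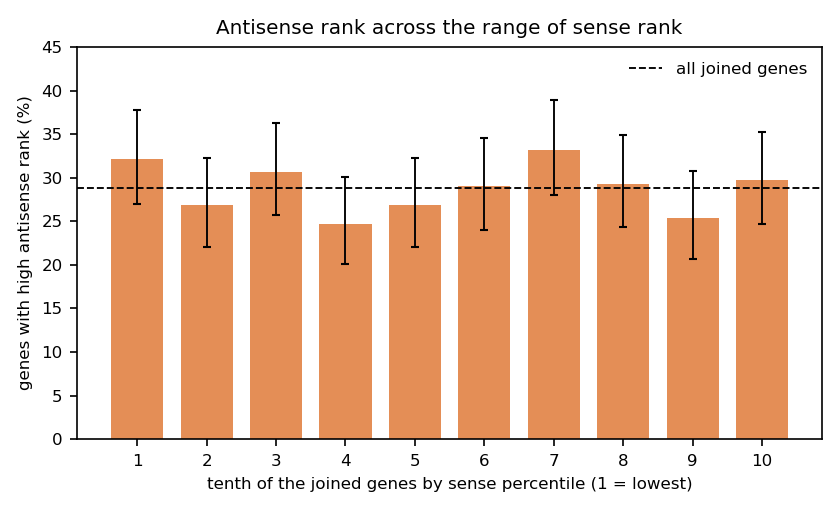
Bars give the share of genes with a high antisense rank (y axis, %) in 10 equal groups of the joined genes ordered by sense percentile (x axis, 283 genes per bar), black lines give 95% Wilson intervals, and the dashed line is the share over all joined genes. The bars lie between 24.7% and 33.2% and follow no order along the axis.

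The 15 genes with the highest rank on both strands included proteins of axons, signalling and RNA handling. Basp1, a membrane protein of growing axons and synaptic terminals, had a sense signal of 2603.0 (percentile 99.2) and a reverse signal of 3106.4 (percentile 99.9), and a single probe set read it on each strand. Gng2, a gamma subunit of heterotrimeric G proteins, ranked at 98.9 on sense (signal 1986.4) and 99.6 on antisense (1250.5). Ywhae, the epsilon member of a family of phosphoserine-binding adaptors, ranked at 99.7 on sense (3737.4) and 97.0 on antisense (307.5). In these 3 genes neither strand ranked below percentile 97.0.

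Proteins that bind or splice RNA were among the 15. Pcbp2, a poly(C)-binding protein, stood at 96.8 on sense (1268.6) and 99.8 on antisense (1344.6). Sf3b2, a subunit of the U2 snRNP that recognises the branch point, stood at 96.5 (1052.8) and 99.0 (681.1), and Pnisr, a serine- and arginine-rich nuclear protein, at 97.4 (1246.6) and 98.9 (782.9). Gnl3l, a nucleolar GTPase, ranked at 97.3 on sense and 99.7 on antisense, where its signal was 1679.9. Prrc2b reached 98.6 on both strands.

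Motor and synaptic scaffold genes were also present. Kif3a, a motor subunit of the kinesin that carries cargo in axons and cilia, ranked at 96.0 on sense (974.5) and 97.2 on antisense (311.2). Dynlt3, a light chain of cytoplasmic dynein, ranked at 98.8 (1958.7) and 96.0 (270.3), and Lin7a, a scaffold of the synaptic membrane, at 96.8 (1094.7) and 98.0 (561.6). The other members of the 15 were Sec62, a subunit of the protein translocation machinery of the endoplasmic reticulum, Bod1, which acts at kinetochores, the transcription factor Mef2d and the fatty acid desaturase Fads1. Their lower percentile lay between 95.6 and 95.8. Over all joined genes 70 reached the 90th percentile on both strands and 17 the 95th.

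The limit at the 75th percentile cut a continuous range. Just inside it lay Tmco1, an ion channel of the endoplasmic reticulum, with an antisense percentile at the limit itself, the insulin-degrading enzyme Ide at 75.2 on antisense, and Rsl1d1 at 75.2 on sense. Miga2, Tprn and Mpp6 followed, with lower percentiles of 75.2 to 75.3. Just outside lay Bace1, the beta-secretase that cleaves the amyloid precursor, at 83.0 on sense and 74.7 on antisense, the lysosomal glucosidase Gaa at 95.3 and 74.9, and the chromatin protein Ep400 at 97.3 and 74.8. Fnbp4, Gpr62 and the autophagy enzyme Atg7 missed on the sense side, the latter 2 at 74.9 and Fnbp4 with a signal of 255.9 against the limit of 256.2.

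The 15 genes with the widest gap in favour of sense had single-digit reverse signals. Gda, the guanine deaminase of neurons, had a sense signal of 2187.1 (percentile 99.0) and a reverse signal of 2.3 (percentile 3.7). Calb1, a calcium buffer of Purkinje cells and interneurons, had 1747.4 (98.0) and 3.8 (7.2), and Atrx, a chromatin remodeller, 1623.2 (98.4) and 5.4 (10.7). Psmb5, a catalytic subunit of the proteasome, had 2294.4 (99.2) and 2.1 (6.2). In all 4 genes the strands stood at opposite ends of their arrays.

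The rest of these 15 genes were of mixed function. They were Klhdc10, Vapa, a membrane contact protein of the endoplasmic reticulum, Ro60, an RNA-binding autoantigen, Oxnad1, Vxn, Klhl24, Fbxl5, the iron-sensing subunit of a ubiquitin ligase, Septin8, the translational regulator Cpeb4, Mrps14 and the scaffold Magi3. Their sense percentiles lay between 89.5 and 99.2 and their antisense percentiles between 0.2 (Ro60) and 9.6 (Septin8). Each of the 15 had 1 reverse probe set, so a low antisense rank was read at 1 place of the gene only. Sense probe sets of 1 gene also disagreed: the 7 of Atrx ranged from percentile 2.9 to 98.4, and the 4 of Calb1 from 45.9 to 98.0.

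Among the 15 genes with the widest gap in favour of antisense were several best known from tissues other than brain. Tchh, a structural protein of hair follicles, had a sense signal of 2.9 (percentile 2.5) and a reverse signal of 591.4 (percentile 98.9). Gast, the precursor of the stomach hormone gastrin, had 5.1 (5.1) and 695.3 (99.1), and Ckmt2, the mitochondrial creatine kinase of muscle, 4.1 (4.0) and 311.1 (97.1). Tnp1, which replaces histones in spermatids, had 7.7 (8.0) and 445.5 (98.0). Zmynd10, an assembly factor for the dynein arms of motile cilia, had 3.1 (2.8) and 711.7 (98.7).

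The others of these 15 genes were Cby2, the adipokine Serpina12, S100g, a calcium-binding protein of gut and kidney, the lymphocyte recombinase Rag1, the biliverdin reductase Blvrb, Cage1, the retinoic acid receptor Rara, Hook2, a linker of endosomes to microtubules, the hypothalamic releasing hormone Ghrh and the bile acid transporter subunit Slc51b. Rara combined a sense percentile of 12.8 (signal 13.8) with an antisense percentile of 99.2 (880.4). Ghrh, which is made by a small group of hypothalamic neurons, stood at 12.4 and 98.1. For 12 of the 15 genes a single sense probe set gave the sense value, against 2 of the 15 at the top of both strands and 3 of the 15 with the widest gap towards sense.

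Several genes at the bottom of both arrays are likewise known from other organs. Svs4, a secretory protein of the seminal vesicle, ranked at 1.0 on sense (signal 1.7) and 1.4 on antisense (0.7). Prl2b1 and Ctsq, a hormone and a protease of the placenta, ranked at 3.1 and 3.4, and at 7.3 and 2.0. Epb42, a protein of the red cell membrane, stood at 8.9 and 4.7. Slc38a4, Nlrp14, Lrmp, Nt5c1b, Cip2a and Serpinb12 completed the 10 lowest, with no percentile above 9.4 on either strand.

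Neuronal genes with values on both strands ranked high on sense throughout and were spread over the whole antisense range. Where percentiles stand as a pair, here and below, the sense value comes first. Each value is that of the highest probe set on its strand, and other probe sets of the gene, sense or reverse, could rank far lower. Of 63 list members with more than 1 reverse probe set 25 had at least 1 high, and in 7 of these, Celf4, Pcp4, Stmn3, Ckmt2, Ndufaf2, Sf3b2 and Dusp10, every one was high. Of 15 neuronal and synaptic genes with both values, 7 were high on both strands, 8 on sense alone and 0 on antisense alone or on neither. The median percentile of the 15 was 98.0 on sense and 72.0 on antisense. Since all 15 were high on sense, the share to set beside the 7 is that of all sense-high genes. Of those 30.0% were high on antisense, and a list of 15 is short for that comparison. Beside Basp1, the 7 were Cdk5r1, which activates the kinase Cdk5 in neurons (94.7 on sense, 98.4 on antisense), the RNA-binding protein Celf4 (96.4, 94.7), the calmodulin-binding Pcp4 (98.3, 94.4), the synaptic vesicle protein Sv2a (96.3, 94.4), the microtubule regulator Stmn3 (99.5, 93.4) and the neuronal tubulin Tubb3 (90.8, 82.1).

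Other neuronal genes stood lower on antisense. Sv2b, the paralogue of Sv2a, ranked at 99.8 on sense but at 41 on antisense (signal 24.6). The neurofilament light chain Nefl was at 99.9 and 72.0, the vesicle phosphoprotein Syn2 at 99.5 and 67.0, and the RNA-binding protein Elavl4 at 88.5 and 42. Ddc, the decarboxylase that makes dopamine and serotonin, had the lowest sense rank of the joined members, at 75.9, and stood at 39.7 on antisense. Its sense probe sets lay 34.5 percentile points apart. Nlgn1, Shank1 and Th of the same list ranked lower on sense but had no antisense value.

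Glial genes were high on sense in most members. Of 8 astrocyte genes 2 were high on both strands, the glutamate transporter Slc1a3 (99.7, 92.7) and the aldolase Aldoc (99.8, 88.9), 5 on sense alone and 1, Sox9, on neither. Sparcl1, a secreted glycoprotein of synapse formation, had a sense percentile of 99.3 (signal 2731.4) and an antisense percentile of 16.3 (4.8). Of 8 oligodendrocyte and myelin genes 0 were high on antisense and 6 were high on sense. The list is too short to set the 0 against the 28.8% of all joined genes that were high on antisense. Bcas1, a marker of myelinating cells, stood at 99.8 and 71.0, the myelin-associated glycoprotein Mag at 96.9 and 53.2, and the RNA-binding protein Qk, which controls myelin mRNAs, at 95.5 and 12.4.

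**Figure D3:**
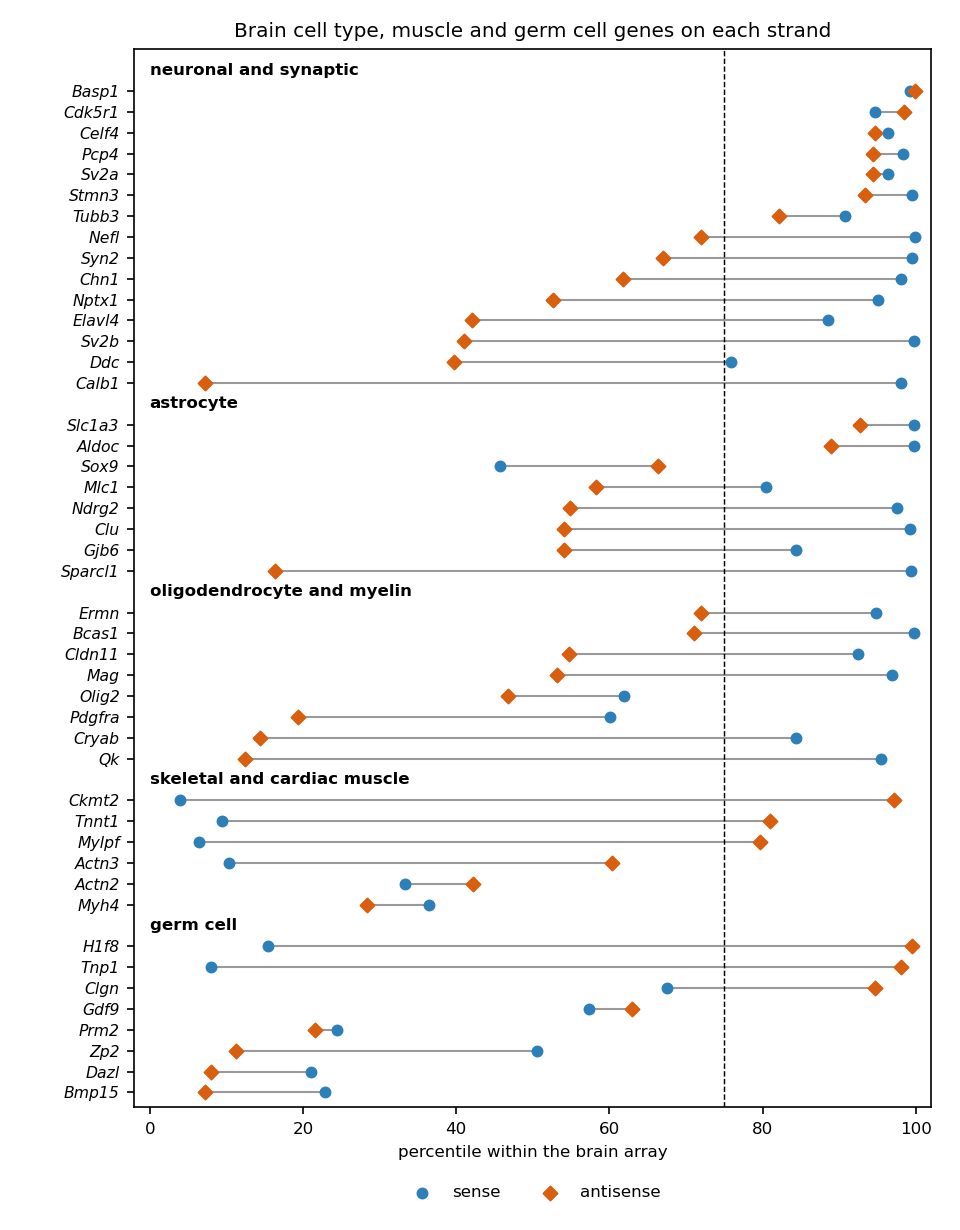
Blue circles give the sense percentile and orange diamonds the antisense percentile (x axis) of each joined member of 5 lists (rows), with the 75th percentile dashed. Neuronal genes sit at the right on sense and range from 7.2 to 99.9 on antisense, while the muscle genes lie between 4.0 and 36.4 on sense and reach 97.1 on antisense.

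Immune, vascular and blood genes had few joined members. Cd79b, a subunit of the B cell receptor, was low on sense (11) and high on antisense (94.1, signal 199.2), and the microglial receptor Csf1r was the reverse (94.1 and 40.1). Laptm5 was at 71.8 and 75.7, and C1qb, Cd68 and Fcer1g were high on neither strand. The endothelial coreceptor Eng stood at 61.0 on sense and 89.5 on antisense, and Esam and Pdgfrb were high on neither.

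Muscle and germ cell genes, none of them high on sense among the joined members, included some high reverse values. Both lists are too short to set against the 28.8% of all joined genes that were high on antisense. Of 6 muscle genes 0 were high on sense and 3 on antisense: Ckmt2, the troponin Tnnt1 (9.4 on sense, 81.0 on antisense) and the myosin light chain Mylpf (6.4, 79.7). Of 8 germ cell genes 3 were high on antisense, the oocyte linker histone H1f8 (15.5, 99.5, reverse signal 903.2), Tnp1 and the spermatid chaperone Clgn (67.5, 94.6). The other 5, Bmp15, Dazl, Gdf9, Prm2 and Zp2, were high on neither strand. Aqp3 and Pck1, which kidney tubules express, were also high on neither, and of the plasma protein genes Apoa2 stood at 14.3 and 76.8 and Hpx at 32.8 and 32.7.

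The splicing, translation and energy machinery ranked high on sense in most members. Of 19 spliceosome and hnRNP genes 13 were high on sense and 3 of these on both strands: Sf3b2, Hnrnpu (96.6, 94.8), which binds chromatin-associated RNA, and Snrpb (95, 89.9), a core protein of the snRNPs. The splicing factor Srsf11 (93.6, 11.3) and the kinase Prpf4b (78.5, 2.0) lay at the other extreme. The median antisense percentile of the list was 56.9, beside 55.5 over all joined genes.

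Translation factors gave 12 of 14 high on sense and 4 on both strands. The latter were the helicase Eif4a1 (96.9 on sense, 93.0 on antisense), the elongation factor subunits Eef1b2 (92.5, 98.4) and Eef1d (83.3, 96.4), and the haem-regulated kinase Eif2ak1 (84.2, 78.0). Eif4b, which assists the helicase, stood at 93.7 and 21.6. Of 5 cytosolic ribosomal protein genes, Rps4x (98.3, 92.0) and Rps27l (78.5, 82.7) were high on both strands and Rpl19 on sense alone. The sense probe sets of Rps4x lay 90.8 percentile points apart. Ribosomal protein genes have many near-identical pseudogene copies, so the identity of their signals is uncertain on either strand.

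Genes of energy metabolism held several members high on both strands, as were 13.3% of all joined genes and 30.0% of those high on sense. Of 13 respiratory chain and ATP synthase genes 4 were: the complex I subunits Ndufb2 (96.4, 87.1), Ndufs7 (96.0, 81.3) and Ndufa6 (93.4, 76.3), and the assembly factor Ndufaf2 (83.4, 99.6, reverse signal 1293.7). Ndufb6, another complex I subunit, stood at 93.5 and 5.9, and Cox8b, the muscle and heart form of a cytochrome oxidase subunit, at 11.3 and 80.4. The other reverse probe sets were lower, at 40.5 for Ndufb2 and at 2.9 and 9.4 for Cox8b. Of 7 genes of glycolysis and the citrate cycle 4 were high on both strands, the aldolases Aldoa (99.8, 94.2, with a further reverse probe set at 58.7) and Aldoc, the phosphoglycerate mutase Pgam1 (96.9, 84.1) and the succinyl-CoA ligase subunit Suclg2 (90.8, 90.8). Most members of both lists were high on sense, 9 of 13 and 6 of 7. The median antisense percentile of the 7 was 84.1, the highest among the 37 lists. It was picked for its value and rests on few genes. Of 10 mitochondrial ribosomal protein genes 1, Mrpl34 (79.9, 86.2), was high on both strands and 5 on sense alone, with the widest gap in Mrps14 (sense signal 568.9, antisense percentile 1.2).

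Proteasome genes ranked high on sense with low reverse values. Of 9 joined members 7 were high on sense alone, 1 on both strands and 1 on neither, and the median percentile was 89.7 on sense and 32.0 on antisense. The member high on both was Psmb1, a subunit of the core ring (89.7, 96.6), whose other reverse probe set stood at 21.6. Psmb5, the regulatory ATPases Psmc5 (99.4, 32.0) and Psmc6 (87.6, 9.9), and Psmd6 (91.7, 29.4) had reverse signals between 2.1 and 10.1.

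Ubiquitin conjugation had the most joined members of the lists. Of 62 genes 10 were high on both strands, 26 on sense alone, 4 on antisense alone and 22 on neither, so 14 were high on antisense, beside 28.8% of all joined genes. Cul3, the scaffold of a ligase family (95, 91.5), the deubiquitinase Usp47 (90.9, 98.5) and the F-box protein Fbxw11 (96.0, 85.8) led on both strands. Fbxl5 (99.0, 7.2) and Fbxl4 (86.8, 2.9) were high on sense alone, and Trim12a, a cytoplasmic restriction factor, was the reverse (19.5, 92.7).

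Of 24 heat shock and chaperonin genes 2 were high on both strands, 10 on sense alone, 6 on antisense alone and 6 on neither. Bag1, a cofactor of Hsp70 chaperones (86.0, 98.7, reverse signal 557.0), and Cct3, a subunit of the chaperonin ring (95.2, 90.5), were high on both. Those on antisense alone were Bag3 (64.5, 97.3), Dnajb7 (19.7, 89.1), Dnajc14, Hspb8, Hspa2 and Dnaja4. The chaperonin ring subunits Cct2, Cct5, Cct6a, Cct7 and Cct8, picked out after their values were seen, ranked between 84.7 and 97.3 on sense and between 34.2 and 47.2 on antisense.

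Of 26 genes of tubulin, actin and their binding proteins, 19 were high on sense and 9 on antisense. The 8 high on both strands were Kif3a, Dynlt3, Stmn3, Tubb3, the tubulin Tuba4a (99.7, 84.3), the dynactin subunits Dctn4 (88.6, 93.0) and Dctn6 (83.7, 80.4), and Actr1a (91.2, 85.4), the actin-related protein that forms the dynactin filament. Kif3b, the partner of Kif3a in the same kinesin, stood at 81.9 on sense and 7.3 on antisense. Arpc5l, of the complex that branches actin filaments, was at 92.0 and 23.

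Of 19 small GTPases 3 were high on both strands, Rab1b (86.7, 85.2), which acts between the endoplasmic reticulum and the Golgi, Rab40c (84.1, 82.5, with a further reverse probe set at 24.8) and Rap2b (81.0, 95.5), and 3 on antisense alone, led by Rab17 (29.2, 96.4), which epithelial cells express. Of 13 lysosome and vacuolar ATPase genes 0 were high on both, 8 on sense alone and 4 on antisense alone. The latter were the placental cathepsin Ctsj (2.0, 86.3), the osteoclast cathepsin Ctsk (35.9, 81.4), the galactosidase Glb1 (48.0, 88.7) and the cholesterol transporter Npc1 (47.9, 86.8). Atp6ap1, an accessory subunit of the proton pump, was at 97.1 and 18.2.

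Of 11 cation channel genes 7 were high on sense alone and 1, the sodium channel Scn1a (81.8, 86.7), on both strands. The taste channel Trpm5 was at 31.2 and 89.0. Of the 3 neurotransmitter receptors, the metabotropic glutamate receptor Grm3 was high on both (83.8, 90.4, with a further reverse probe set at 59.6), the AMPA receptor subunit Gria3 was at 97.1 and 74.6, and the muscarinic receptor Chrm4 was low on sense and just high on antisense (11.1, 75.8).

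Of 48 solute carriers 5 were high on both strands, 17 on sense alone, 3 on antisense alone and 23 on neither, and the median antisense percentile was 39.1. Slc43a2, an amino acid transporter (93.8, 96.8), Slc1a3 and the citrate carrier Slc25a1 (96.9, 79.8) led on both. The neuronal amino acid transporter Slc6a15 (83.0, 2.9) and the choline transporter Slc44a1 (86.7, 7.5) had the widest gaps towards sense. Slc15a3, a peptide transporter of immune cells, ranked at 3.8 on sense and 78.4 on antisense.

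Nuclear regulators were spread over the classes. Of 46 zinc finger genes 4 were high on both strands, 15 on sense alone, 6 on antisense alone and 21 on neither. Zfp207 (93.7, 95.9), Zfp428 (81.3, 99.5) and Zfp512 (97.4, 79.8) led on both. Zscan26, noted after its value was seen, had the highest reverse signal among named probe sets of U74A, at 1418.9. Of 14 homeobox, Sox, Pax and Fox genes 8 were high on neither strand. Foxk1 was high on both (82.5, 82.0) by 1 of its 2 reverse probe sets, the other standing at 3.9. The neuronal factors Pou3f3 (97.9, 36.5) and Pou6f1 (88.1, 21.4) were high on sense alone, and Hoxc5, which patterns the trunk, on antisense alone (37.9, 95.8).

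Of 20 chromatin regulators 3 were high on both, the remodelling subunits Smarcd2 (78.6, 95.1) and Smarca5 (76.8, 97.9) and the histone methyltransferase Kmt5c (76.4, 93.5), and 5 on antisense alone, among them Cbx3 (48.6, 99.7, reverse signal 1022.6) and the demethylase Kdm1b (32.0, 91.5). Of the 5 reverse probe sets of Smarcd2 the other 4 ranked between 32.5 and 78.8. The DNA methyltransferase Dnmt1 stood at 85.4 on sense and 5.1 on antisense. Of 19 genes of cell cycle and DNA replication 4 were high on sense and 7 on antisense. Cenpv (80.9, 90.8) and the cell cycle inhibitor Cdkn1b (sense signal 313.6, antisense percentile 98.4) were high on both, and the replication factor C subunits Rfc3 (20.3, 85.7) and Rfc5 (46.3, 93.3) on antisense alone. Of 3 histone genes, H1f8 and H2bc22 (45.5, 79.9) were high on antisense alone and H2bc21 on neither.

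The lists of MAP kinases, cytokines, matrix genes and detoxification enzymes had 0 members high on both strands, beside 13.3% of all joined genes. In each of these short lists most members were not high on sense, which left few that could be high on both. The MAP kinase cascade gave 5 of 15 on sense alone and 2 on antisense alone, the phosphatases Dusp9 (15.1, 99.5, reverse signal 890.9) and Dusp10 (63.8, 85.7). The other reverse probe set of Dusp9 stood at 50.1. Of 10 cytokine and chemokine genes 1 was high on sense and 3 on antisense, the chemokine receptor Ccr9 (29.2, 93.9) and the interleukin receptors Il1r2 (21.2, 90.2) and Il15ra (47.6, 89.5). Ccr9 had a further reverse probe set at 3.4. Of 12 collagen, laminin and matrix protease genes 1, the protease inhibitor Timp2 (97.9, 13.3), was high on sense and 4 on antisense, with the epidermal collagen Col17a1 at 2.5 and 83.7. Of 10 detoxification enzymes 7 were high on neither strand, and the brain sulfotransferase Sult4a1 was at 99.4 and 38.2.

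Some loci were chosen because an antisense or overlapping transcript has been described there. Of 7 with both values 3 were high on both strands: Camk2n1, an inhibitor of CaM kinase II with the highest sense signal of the 430B array (12906.1, and percentile 83.3 on antisense), Ndufs7 and Psmb1, the last by 1 of 2 reverse probe sets. Bace1 missed the antisense limit at 74.7, and Cav1, Surf2 and Tbp were high on neither strand. Of the 4 imprinted and 5 immediate early genes 0 were high on antisense, lists too short to set against the 28.8% of all joined genes. The imprinted noncoding RNA Meg3 had a sense signal of 8149.5 and an antisense percentile of 66.4, and the activity-induced factors Egr1 (96.6, 28.9), Fos (88.1, 66.7) and Nr4a2 (91.8, 27.0) were high on sense alone.

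A neighbouring gene that runs tail to tail into a locus is 1 source of antisense RNA. Strands were known for 2249 of the 2830 genes (79.5%), under the 80% asked for here, so the check over all genes is void and the measured pairs are only described. There were 186 pairs in which the 3' end of a joined gene overlaps, in the RefSeq annotation, that of a neighbour with a sense value. The antisense strand ranked high in 22 of 71 pairs with a high-ranking neighbour, which is 31.0% (95% Wilson interval 21.4 to 42.5), and in 32 of 115 others, which is 27.8% (20.5 to 36.6). With neighbours read by 1 sense probe set these counts were 7 of 15 (46.7%, 24.8 to 69.9) and 20 of 57 (35.1%, 24 to 48.1). Over the 186 pairs the antisense percentile and the sense percentile of the neighbour had a Spearman rho of -0.004. Whether the reverse probes lie in the overlap is not known here.

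Single pairs lay at both extremes. Cox20, an assembly factor of cytochrome oxidase, had an antisense percentile of 95.4 (signal 238.8) and its neighbour Hnrnpu a sense percentile of 96.6 (1227.4). The cilium gene Iqcg reached 90.9 on antisense beside Lrch3 at 93.9 on sense, and Sphk2, a sphingosine kinase, 97.7 beside the clock output factor Dbp at 87.8. Fam104a stood at 98.8 beside Cog1 at 89.1, and Gatc at 88.3 beside the splicing factor Srsf9 at 89.5. Sphk2 and Gatc each had a further reverse probe set, at 60.3 and 11. Smim4, Srrm2 and Nrd1 completed the 8 highest pairs.

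Other pairs, picked after their values were seen, had a high neighbour and a low antisense value. Gps2 had an antisense percentile of 12.7 (6.2) beside the translation factor Eif5a at 99.3 (2807.5). Serinc4 stood at 13.7 beside Serf2 at 98.2, and Pet100 at 10.9 beside the Purkinje cell gene Pcp2 at 95. Rab10 stood at 40.3 beside its annotated antisense RNA Rab10os at 94.5 (793.7). A high sense rank of the neighbour thus went with high as well as low antisense ranks.

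Reverse probe sets of the same gene often disagreed. For 313 genes with exactly 2 reverse probe sets, the median gap was 28.3 percentile points (quartiles 13.9 and 46.5), and for 833 genes with exactly 2 sense probe sets it was 19.7 (8.3 and 35.7). Gng2 owed its place to 1 of its 2 reverse probe sets, at 99.6 against 28.6. Tchh had 98.9 and 19, Tnp1 98.0 and 14.4, Ghrh 98.1 and 60.1, and Pnisr 98.9, 73.9 and 54.2. In these 5 genes the antisense class rests on a single probe set. Some list genes with exactly 2 sense probe sets had wide sense gaps, among them Rps4x (90.8), Cct8 (75.7), Psmd6 (71.0), Cdkn1b (64.0) and Suclg2 (43.4). Their high sense rank likewise rests on 1 probe set. Gaps were narrow in others, such as Stmn3 (0.6), Nefl (0.6), Sv2b (0.8), Ndufs7 (4.8), Cct7 (5.5) and Snrpb (7.1).

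**Figure D4:**
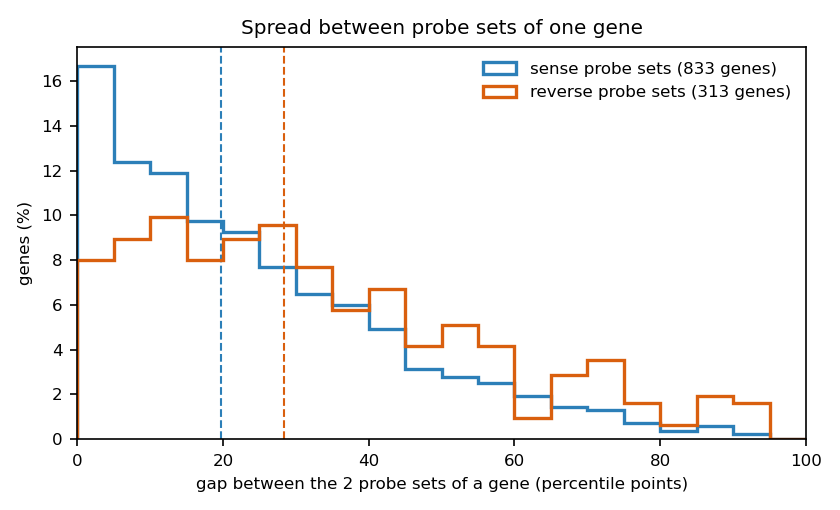
Lines give the share of genes (y axis, %) by the gap in percentile points between their 2 probe sets (x axis), in blue for 833 genes with 2 sense probe sets and in orange for 313 genes with 2 reverse probe sets. Dashed lines mark the medians, 19.7 for sense and 28.3 for reverse.

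Of 1821 genes with more than 1 sense probe set 988 had at least 1 high, and in 170 of these every sense probe set was high. Of 350 genes with more than 1 reverse probe set 161 had at least 1 high, and in 31 of these every reverse probe set was high. Of the 31, 18 were high on both strands. They included Stmn3 (reverse signals 186.2 and 79.2), Pcp4 (209.5 and 104.6), Celf4 (157.5 and 322.5), Sf3b2 (681.1 and 85.8), Sec62 (498.6 and 159.4), the chaperone Canx (140.9 and 80.6), the endocytic GTPase Dnm2 (338.9 and 69.1) and the peroxisomal catalase Cat (123.7 and 132.6). Their sense probe sets did not all rank high. The lowest stood at percentile 19.5 for Sf3b2, 25.1 for Dnm2, 33.0 for Sec62, 57.8 for Canx and 69.7 for Cat. For Celf4, Pcp4 and Stmn3 the lowest stood at 85.6, 98.3 and 98.8. The 13 high on antisense alone included Gast (504.1 and 695.3), Ckmt2 (158.4 and 311.1), Miip (621.1 and 873.6) and Glb1l, whose 4 reverse probe sets read between 216.7 and 997.4.

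A letter before the ending of a probe set name, such as f or i, marks probe sets whose probes Affymetrix could not all choose by its usual rules or as unique. For 11 of the 31 genes all reverse probe sets carried such a letter, Gast, Ckmt2 and Glb1l among them, and for 8 none did. By class, the reverse probe set that stood for the gene was marked in 22.5% of genes high on both strands and 23.4% of those on sense alone. It was marked in 25.3% of those on antisense alone and 25.8% of those on neither. Among the named genes it was marked in 6 of the 15 with the widest gap towards antisense. These were Tchh, Gast, Ckmt2, Tnp1, Rag1 and Ghrh. It was marked in 5 of the 15 at the top of both strands and 4 of the 15 with the widest gap towards sense. Among 63 genes with reverse probe sets on U74A and on U74B, 5 were high on both arrays: Fam104a (85.6 and 98.8), Fam136a (83.9 and 88.1), Kctd17 (81.3 and 93.1), the splicing factor Luc7l3 (92.0 and 97.3) and Snapc3 (76.1 and 87.8). Another 21 were high on 1 of them and 37 on neither, and rho over the 63 was 0.09.

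Taking the highest probe set of a gene lifts genes with many probe sets. Of 1009 genes with 1 sense probe set 26.7% were high on sense, and of 235 with 5 or more 78.3% were. Antisense moved the same way, from 26.4% of 2480 genes with 1 reverse probe set to 44.4% of 313 with 2. The sense arrays also differed. The same 100 probe sets sat on 430A and 430B, and all 100 ranked higher on 430B, by a median of 10.6 percentile points, with 78 high on 430A and 99 on 430B. Psmb5 was among them, at 94.5 on 430A and 99.2 on 430B. Over the 100 probe sets the median signal ratio of 430B over 430A was 2.51. Neither sense ranks nor sense signals from the 2 arrays are thus on the same scale.

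In kidney, ranked the same way on its own arrays, the strands went together somewhat more: rho was 0.18, and 32.2% of genes high on sense were high on antisense, against 23.5% of the others. The difference between tissues was not tested, and kidney sense came from 1 array of another design. Brain classes carried over on the reverse side, where the same probes were used. Of the 438 genes high on antisense alone in brain 289 (66.0%) were high on antisense in kidney, as were 258 of the 377 high on both strands (68.4%), against 127 of the 880 high on sense alone (14.4%) and 130 of the 1135 high on neither (11.5%). Probe binding and tissue cannot be told apart in that agreement, since both tissues were read with the same probes.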

How the data were processed

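The authors deposited a linear intensity for each probe set, computed with MAS5, per the submitters' processing notes; scaling targets and detection calls are not given in the sources used here. For the U74 arrays the authors deposited only the reverse probe sets, per the labels. Probe sets were named from GEO's platform annotation; matching gene identifiers to RefSeq (GRCm38.p6) changed 0 symbols. A probe set with no symbol or more than 1 was ranked but joined to no gene.

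Percentiles were computed within each array over all its probe sets, and a gene took its highest-ranking probe set on each strand (python 3.11.15, numpy 2.4.6, pandas 2.3.3, scipy 1.17.1, matplotlib 3.10.9). Counting was tested on simulated data. The only repeat reading was that of 100 probe sets on both 430A and 430B; precision is otherwise limited by there being 1 array a group. Overlapping neighbours came from RefSeq gene spans, with strands from its promoter table.

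The members and the 37 gene lists, which hold 499 of the joined genes, were chosen with earlier results of these data known. The rule named the genes at the extremes of both, either or neither strand, those next to the limit, the extreme members of each list, small lists in full, and the 8 highest neighbour pairs. Alternatives were the median or single probe set, limits at the 50th and 90th percentile, each array alone, no suffix-marked probe sets, a pooled sense ranking and ranks among named probe sets. A further alternative left out the symbol update and was identical to the main reading, since no symbol had changed.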

Additional observations from a re-analysis of the deposited data

Results flagged for a closer look

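Reverse probe sets without a gene symbol could not be joined, and a smaller share of them ranked high than of those with 1 symbol. The 75th percentile limit itself sets the share of high probe sets over each whole array. On U74A 221 of 1042 unnamed reverse probe sets reached the 75th percentile of the array (21.2%, against 27.3% of the 1552 with 1 symbol), with signals up to 3185.7. On U74B 287 of 1212 did (23.7%, against 25.9% of 1763), with signals up to 4537.8. The highest reverse signal on each array therefore belongs to a probe set outside the comparison by gene, and no control sample shows what a reverse probe set reads without its target.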

How the results depend on the processing

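No paired analysis was possible because each group holds 1 array. The excess of high antisense ranks among genes high on sense, a difference added after seeing the data, was 2.1 percentage points and turned to -0.4 with U74A alone (28.8% against 29.2%) and to -1.8 with a single sense ranking (27.9% against 29.7%). It lay between 0.6 and 4.8 in the other alternatives, and rho between the strands lay between 0.01 and 0.07. Reading a gene by the median over its probe sets, 195 genes were high on both strands and 512 on sense alone, and 23.8% of genes not high on sense were high on antisense; 195 of the 377 genes kept their class. Fewer genes entered some alternatives. With 1 probe set per strand (927 genes) the classes held 78 on both, 166 on sense alone, 199 on antisense alone and 484 on neither, so antisense alone outnumbered sense alone. U74A alone (1319 genes) gave 169, 418, 214 and 518, U74B alone (1574) 211, 494, 226 and 643, and 430B alone (1368) 194, 457, 190 and 527. With 430A alone (2264) both and sense alone fell to 233 and 549, and without suffix-marked probe sets (1994) to 240 and 586. The single sense ranking gave 395, 1021, 420 and 994. The limit at the 90th percentile gave 70, 518, 253 and 1989 genes, with 11.9% of genes high on sense and 11.3% of the others high on antisense. At the 50th percentile 1178 were high on both and 364 on neither, and these shares were 56.9% and 52.2%. With neighbours read by 1 sense probe set, 46.7% of genes with a high tail-to-tail neighbour were high on antisense (7 of 15). Of 1776 counts of list members under the alternatives, 1142 lay within 1.5 times the main count and 634 did not. Small counts move easily. The 1142 include all counts without the symbol update, which could not differ from the main ones. With signals alone and no detection calls, a low rank cannot be told from no signal.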

Other observations

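Over all joined genes 13.3% were high on both strands, 31.1% on sense alone, 15.5% on antisense alone and 40.1% on neither. Only a RIKEN, Gm or expressed-sequence name was carried by 84 of them. Of these 84 genes 5 were high on both strands, 16 on sense alone, 18 on antisense alone and 45 on neither. For these genes the annotation of the strand itself may be less certain, which was not tested. Glb1l, a galactosidase-like gene, held 4 reverse probe sets, all on U74A and at percentiles of 94.7 to 99.6, while its sense percentile was 41.3. Dusp10, Tamm41 and Fam136a were each read by 2 reverse probe sets without a suffix letter, both high, and by a sense rank between 59.5 and 64.6.

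The reverse probe sets of the tail-to-tail neighbours Cox20 and Hnrnpu both ranked high, at 95.4 and 94.8, and so did both sense strands, at 78.1 and 96.6. Each locus of this pair was thus read as high on both strands by its highest probe sets. The pair was picked as the highest of the 186 measured pairs. Cox20 had 2 sense probe sets, of which the higher is given, and its reverse probe set carried a suffix letter.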
